A study of Mus musculus with 2 samples.

Results

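The barcodes described here are those of library 2, a single-cell RNA library of mouse hippocampus, in which more than 20% of the unique molecular identifiers (UMIs) came from the mitochondrial genome. A barcode stands for 1 droplet and the RNA captured in it. Of the 6448 barcodes of library 2, 3570 held at least 1000 UMIs and at least 500 genes, and 597 of these (16.7%, exact binomial 95% interval 15.5 to 17.99%) passed the 20% limit. They are called high-mitochondrial barcodes. They were set against the 2164 barcodes of the same library with the same minimum depth and at most 10% mitochondrial UMIs (60.6%), called low-mitochondrial barcodes. A further 809 barcodes lay between both limits. The members were chosen by their measured depth, gene number and mitochondrial share, so the share is given below as a description only. All other genes were measured as counts per 1000000 UMIs (CPM) over the genes not starting mt-, so that the mitochondrial UMIs themselves do not lower the other values.

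The mitochondrial genome encodes subunits of the respiratory chain and of ATP synthase, ribosomal RNAs and transfer RNAs, and its transcripts stay inside the organelle. A high share of them in a droplet is widely used to filter single-cell data, because a cell whose outer membrane has opened loses cytosolic RNA more readily than RNA enclosed in mitochondria. Cells rich in mitochondria, such as the transport epithelium of the choroid plexus, can also carry a high share. The choroid plexus lines the ventricles next to the hippocampus and secretes cerebrospinal fluid, microglia are the resident macrophages of the brain, and neuronal processes hold mitochondria and local messenger RNAs far from the nucleus.

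The series holds 2 libraries made with 10x Genomics 3' chemistry, version 3, each from the pooled hippocampal cells of 3 wild-type C57BL/6 mice 10 weeks old, described in the design as male. It sets enzymatic dissociation for 30 min at 37 °C against mechanical dissociation at 4 °C, and debris and myelin were removed over Percoll, but the labels do not tie a library to a method. Both libraries are therefore unassigned, and the files of library 2 carry the number 4 where its title carries 2. Library 2 held 29356086 UMIs, and 19 barcode sequences also occurred in library 1, among them 3 high-mitochondrial and 7 low-mitochondrial barcodes. Each library is 1 pool, so no test across samples was possible, barcodes are not replicates, and all 95% intervals cover counting error only. A gene or group is called higher or lower where it passed 2-fold, and the share of all genes past 2-fold stands beside the first count in each comparison. In sums over droplets, fewer droplets of a cell type and less RNA per droplet cannot be told apart.

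The high-mitochondrial barcodes were shallow and their mitochondrial shares were spread widely. Their median was 1786 UMIs (range 1002 to 139617), of which 581 were mitochondrial and 1159 were not, with 686 genes. The low-mitochondrial barcodes had a median of 6440.5 UMIs, 299 mitochondrial and 6138 other, with 2520.5 genes. The absolute mitochondrial count was thus higher in the high-mitochondrial barcodes while the count of all other RNA was lower. The median mitochondrial share was 30.0%, the highest 79.8%, and 298, 152, 77 and 34 barcodes exceeded 30, 40, 50 and 60%. Just inside the limit, the 83 barcodes between 20 and 22% had a median of 1687 UMIs, and just outside it the 89 barcodes between 18 and 20% had 1820. With every barcode thinned to 600 non-mitochondrial UMIs, the median number of genes was 401 in the high-mitochondrial and 429 in the low-mitochondrial barcodes, and 0 barcodes were too shallow for this. The unthinned depth gap touches every comparison, so each was repeated, where enough barcodes remained, among those with 1000 to 2000 non-mitochondrial UMIs in both sets (264 high against 168 low, with medians of 1258.5 and 1395), called like depth.

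**Figure D1:**
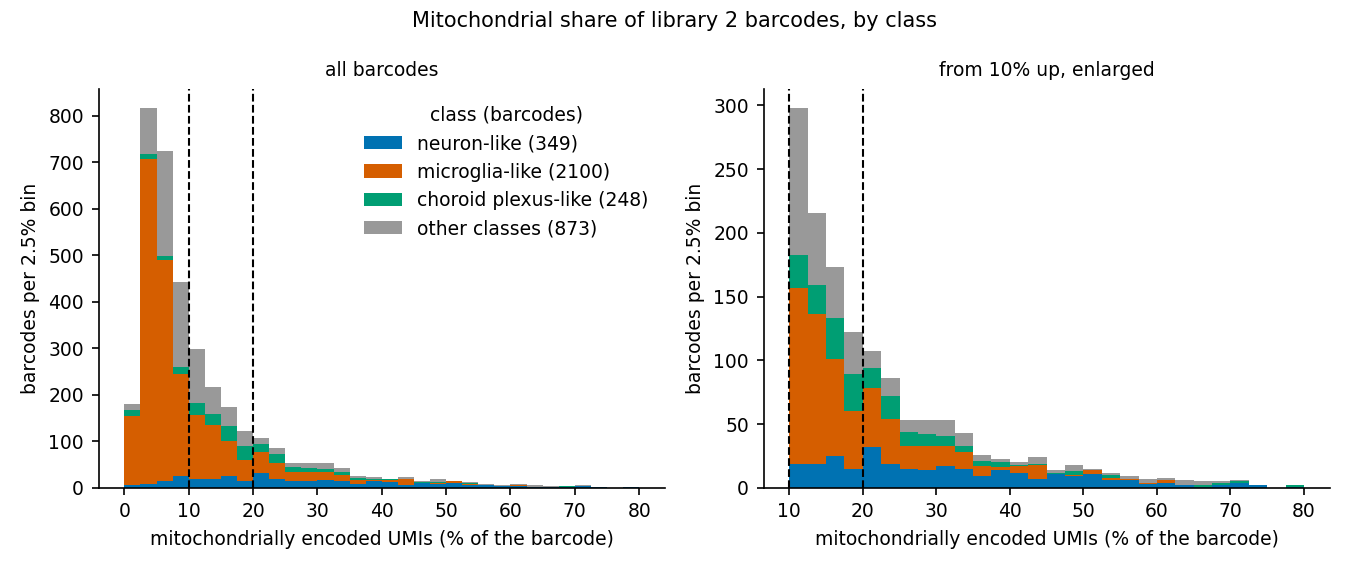
Histograms of the mitochondrial share (percent of UMIs, horizontal axis) of the 3570 barcodes of library 2 with at least 1000 UMIs and 500 genes, stacked by class, with the number of barcodes on the vertical axis, dashed lines at 10 and 20% and the range from 10% up enlarged on the right. The 597 high-mitochondrial barcodes form a long tail that reaches 79.8%, with no gap in the counts at 20%.

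The excess of mitochondrial UMIs, which the limit itself sets, was spread over the genes of the mitochondrial genome. Messenger RNAs of the mitochondrial protein genes made up 90.8% of the mitochondrial UMIs of the high-mitochondrial and 85.9% of the low-mitochondrial barcodes, and the ribosomal RNAs 9.18 and 14.1%. mt-Co3, a subunit of cytochrome c oxidase, took 16.2 and 15.5%, mt-Atp6, a subunit of ATP synthase, 16.0 and 15.7%, and mt-Cytb, of complex III, 10.6 and 9.72%. Among the complex I subunits, the log2 ratio of these within-mitochondrial shares was 0.25 for mt-Nd1, 0.25 for mt-Nd2, 0.35 for mt-Nd3, 0.15 for mt-Nd4, 0.32 for mt-Nd4l and 0.08 for mt-Nd5. It was -0.17 for mt-Co1, 0.12 for mt-Co2 and -0.44 for mt-Atp8. The lowest of the protein genes was mt-Nd6, the one encoded on the other strand, at -0.62, and the large ribosomal RNA mt-Rnr2 was at -0.71. Over all members, none of the mitochondrial protein genes passed 2-fold in this composition. Choroid plexus-like barcodes, defined below, held 496099 of the 901947 mitochondrial UMIs of the high-mitochondrial set, but 25702 of 919834 in the low-mitochondrial one. The whole-set shares, those of ribosomal RNA, mt-Rnr2 and mt-Nd6 included, thus compare unlike class mixes. Within the microglia-like barcodes defined below, where class makeup does not enter, the ribosomal RNA share was 14.5 against 14.9%. Within the neuron-like barcodes it was 12.1 against 15.4%. Within the choroid plexus-like barcodes it was 4.72 against 11.3%, with mt-Rnr2 at -1.27 and mt-Rnr1 at -1.24 on the log2 scale. In that class mt-Nd6 was also past 2-fold, at 0.0472 against 0.156% of the mitochondrial UMIs (log2 ratio -1.72, on 234 and 40 UMIs).

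Neuron-like and choroid plexus-like barcodes held a larger share of the high-mitochondrial barcodes, and microglia-like barcodes a smaller one. Classes were read from clusters built without mitochondrial genes, and carry the ending -like because they rest on RNA markers alone. Neuron-like barcodes numbered 216 of 597 (36.2%, 32.3 to 40.2%) against 55 of 2164 (2.54%). Choroid plexus-like barcodes numbered 88 (14.7%, 11.99 to 17.8%) against 50 (2.31%). Microglia-like barcodes numbered 183 (30.7%, 27.0 to 34.5%) against 1541 (71.2%). Read the other way, 61.9% of all 349 neuron-like barcodes of library 2 were above 20%, against 35.5% of 248 choroid plexus-like, 8.71% of 2100 microglia-like and 7.28% of 302 endothelial-like barcodes. The smaller classes among the members were endothelial-like (22 barcodes), astrocyte-like (14), oligodendrocyte-like (14), border-associated macrophage-like (9), pericyte or smooth muscle-like (9) and fibroblast-like (8). A haemoglobin-led group held 1 member, clusters without a class name 10, and a small cluster led by Tmem212, described further below, 23. None of the 20 T or NK cell-like barcodes was a member, which at 3 counts allows a share of up to 15% of that class. These shares moved with depth: at like depth neuron-like barcodes were 30.7% of the high and 17.9% of the low set, microglia-like 39.8 and 65.5%, and choroid plexus-like 12.1 and 1.79% (3 low barcodes). With at least 2000 UMIs per barcode, the neuron-like share of the members was 18.2% and the choroid plexus-like share 29.2%, and with coarser clusters (Leiden resolution 0.5) the latter was 5.36%.

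**Figure D2:**
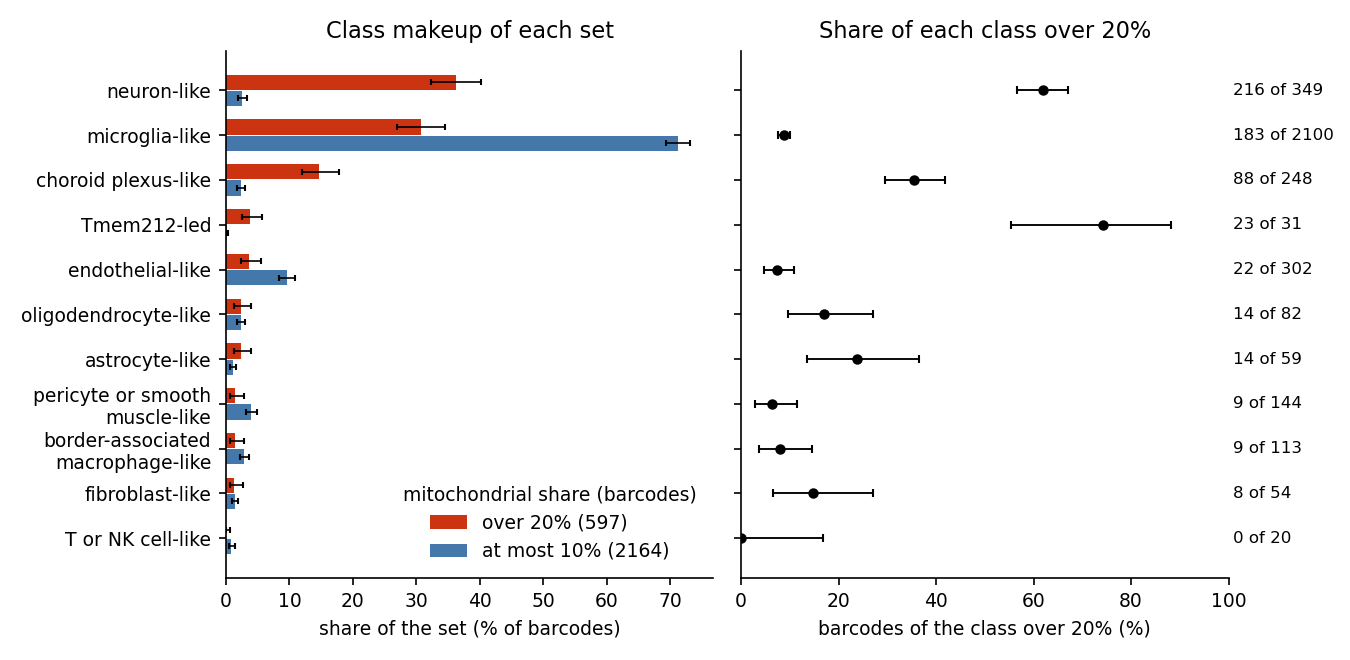
Class makeup of the high-mitochondrial and low-mitochondrial barcodes (percent of each set) and, for each class, the percent of its barcodes above 20% mitochondrial UMIs, with exact binomial 95% intervals as bars. Neuron-like barcodes rise from 2.54 to 36.2% of a set and microglia-like barcodes fall from 71.2 to 30.7%.

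Summed over barcodes, the markers of the choroid plexus and of neurons were higher in the high-mitochondrial set and those of microglia and endothelium lower. The choroid plexus list stood at 168887 against 7532 CPM (log2 ratio 4.49), and all 15 of its 15 tested genes were past 2-fold upwards, where 13.8% of all 11526 genes tested were. These sums rest on few barcodes: 20 of the 597, all choroid plexus-like, held 50% of the non-mitochondrial UMIs of the set, whereas 574 of 2164 did so in the low set. With every barcode given equal weight, the choroid plexus log2 ratio was 2.97, and at like depth it was 2.26 (52055 against 10848 CPM). The level per barcode ran from 396 over a median of 12016 to 556842 CPM in the high set, and from 0 over 2116 to 456901 CPM in the low set. The ranges overlap throughout, and the upper quartile of the low set (3251 CPM) lay under the lower quartile of the high set (7653 CPM). The genes with the highest ratios were led by genes known from this epithelium. Cldn2 (chrX:139800828-139811386), a pore-forming tight junction protein, stood at 200.02 against 2.85 CPM, 70.2-fold (51.5 to 97.8) higher, on 45 UMIs in the low set. Prlr, the prolactin receptor, stood at 822 against 15.9 CPM, Kl, encoding the antiageing protein Klotho, at 1176 against 25.2 CPM, and Enpp2, encoding the secreted lysophospholipase autotaxin, at 20907 against 542 CPM. Car12, a carbonic anhydrase, stood at 252 against 5.83 CPM, and the bicarbonate transporters Slc4a5 and Slc4a10 at 243 against 5.76 CPM and 391 against 11.7 CPM. Cldn1, Steap2, Sema3b, Strip2, Atp2b3, Cntn1, Nsg2 and Sostdc1 complete the 15 highest, at 35.1 to 63.8 times the low level. Ttr, the thyroxine carrier secreted by the choroid plexus, stood at 139936 against 6678 CPM.

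Neuronal markers were higher in the sums and also with equal weights. The neuron list stood at 3292 against 484 CPM (log2 ratio 2.77), 9 of 9 tested genes were past 2-fold upwards, and with equal weights the log2 ratio was 3.28. At like depth it was 0.46 (7464 against 5434 CPM), so that most of the difference was not seen among barcodes of matched depth. Microglia markers were lower: the list stood at 4045 against 22857 CPM (log2 ratio -2.50), 12 of 12 genes were past 2-fold downwards, where 23.5% of all genes were, and the log2 ratio was -1.79 with equal weights, -1.13 without the choroid plexus-like barcodes and -1.10 at like depth. Cx3cr1 (chr9:119901616-120069879), the fractalkine receptor of microglia, fell from 3201 to 368 CPM, and at like depth from 2262 to 647 CPM. Endothelial markers stood at 689 against 4019 CPM, with 10 of 10 genes past 2-fold downwards, and at 791 against 2125 CPM at like depth. Cldn5, the main claudin of the blood-brain barrier, fell from 721 to 79.3 CPM. Klf2, a transcription factor of endothelium that is not in the endothelial list, fell from 835 to 71.2 CPM. It is counted among the immediate early genes described below. At like depth the background was 6.61% of 787 genes upwards and 4.32% downwards, and the microglia list still held 8 of 11 genes past 2-fold downwards.

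In the sums over all depths, genes of blood leukocytes and of antigen presentation were lower in the high-mitochondrial barcodes. The neutrophil list stood at 27.8 against 2731 CPM, with 5 of 5 genes past 2-fold downwards. Ngp and Camp, both encoding neutrophil granule proteins, had 0 UMIs in the high set, against 169.6 and 127 CPM in the low set, which is at least 112-fold and at least 83.9-fold lower with the floor at 3 UMIs over the set. Ccl5, a chemokine of T and NK cells, also had 0 UMIs, at least 42.7-fold lower, and the neutrophil calprotectin genes S100a8 and S100a9 stood at 10.6 against 1190.0 CPM and 16.2 against 1303 CPM. An unnamed cluster led by S100a8, S100a9 and Ngp, with Camp, Retnlg and Lcn2 also leading, held 10 low and 0 high-mitochondrial barcodes. The low ones had a median of 13158 UMIs, and how far the low-set levels of these genes rest on those 10 barcodes was not tested. The antigen presentation genes H2-Aa, H2-Ab1, H2-Eb1 and Cd74 were 14.7 to 21.8 times lower, with Cd74 at 49.0 against 720.1 CPM. These antigen presentation genes led the border-associated macrophage-like cluster, which held 62 low and 9 high-mitochondrial barcodes, and are not read as blood leukocyte RNA. The chemokine receptor, claudin and factor named above (Cx3cr1, Cldn5 and Klf2) with Retnlg, Lcn2 and Fmo2 complete the 15 lowest. At like depth the neutrophil list stood at 53.9 against 33.1 CPM, on 19 and 8 UMIs (log2 ratio 0.70, -0.56 to 2.10), and the signs turned for S100a9, H2-Aa, H2-Ab1 and Cd74, with log2 ratios from 0.04 to 0.65.

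Among barcodes of like depth, choroid plexus and astrocyte genes were higher in the members and microglia and endothelial markers lower. Of the microglia list 8 of the 11 genes tested were past 2-fold downwards, and of the endothelial list 4 of 4. Ttr stood at 46201.5 against 9684 CPM, Enpp2 at 4058 against 762 CPM, Kl at 323 against 29.0 CPM and Ptgds, the secreted prostaglandin D synthase, at 3397 against 886 CPM. The astrocyte list stood at 1097 against 398 CPM, with Aldoc, the aldolase of astrocytes, at 264 against 33.1 CPM, and Clu, the secreted chaperone clusterin, stood at 536 against 133 CPM. The neuronal genes Grin2b, an NMDA receptor subunit, and Camk2a, a synaptic kinase subunit, stood at 267 against 58.0 CPM and 380.0 against 108 CPM. The lower genes included P2ry12 at 544 against 1603 CPM, P2ry13 at 119 against 402 CPM, Gpr34, a lysophospholipid receptor, at 516 against 1516 CPM, Entpd1 at 111 against 364 CPM and the endothelial surface protein gene Ly6c1 at 87.9 against 348 CPM. Genes were counted only with at least 100 UMIs over both sets, which genes scarce in the low set could reach through the members. Aldoc (93 UMIs in the members and 8 in the low set), Kl (114 and 7) and Grin2b (94 and 14) were such genes. Their low-set levels rest on those few UMIs. The genes named in this paragraph were chosen after their values were seen. Class makeup still differs between both sets at like depth, as given above. The high set there also held 10 Tmem212-led and 5 astrocyte-like barcodes, against 1 and 1 in the low set. Most Tmem212-led members carried astrocyte markers and Camk2a, as described below, and their part in these values was not tested.

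Of the remaining cell type lists, those of blood and vessel wall cells were lower and the ependymal list higher in the sums. Astrocyte markers stood at 645 against 435 CPM over all depths, with 6 of 9 genes past 2-fold upwards and 1 downwards. Oligodendrocyte markers stood at 772 against 2527 CPM in the sums, but their log2 ratio turned to 0.21 with equal weights and to 0.41 at like depth. Border-associated macrophage markers stood at 169 against 396 CPM, with a log2 ratio of 0.92 at like depth, pericyte and smooth muscle markers at 472 against 1317 CPM (log2 ratio 0.73 with the limit at 15%) and fibroblast markers at 207 against 196 CPM. Red cell genes stood at 2060.3 against 8561 CPM, monocyte markers at 45.0 against 224 CPM, B cell markers at 41.9 against 196 CPM and T or NK cell markers at 1.01 against 45.6 CPM, the last on 2 UMIs in the members. The red cell list did not keep its direction at like depth, where it stood at 1236 against 1176 CPM (log2 ratio 0.07). Ependymal markers stood at 389 against 69.4 CPM, with 4 of 5 genes past 2-fold upwards. Oligodendrocyte precursor markers stood at 79.8 against 45.5 CPM with 0 of 2 genes past 2-fold.

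Among the gene groups of cell state, the nuclear genes of oxidative phosphorylation were higher and the immediate early and cytokine genes lower in the sums. Of 90 tested nuclear-encoded subunits of the respiratory chain and ATP synthase, 54 were past 2-fold upwards and 2 downwards (44819.9 against 15009.6 CPM, log2 ratio 1.58). The log2 ratio was 0.55 with equal weights and 0.35 at like depth, where 1 of 44 genes was past 2-fold. Genes of the mitochondrial ribosome, which are also nuclear, had a log2 ratio of 0.45 (9 higher and 2 lower of 77), and those of mitochondrial transcription and RNA handling 0.61. Mitochondrial quality control genes, which encode proteases, chaperones and mitophagy factors of the organelle, had 0.18, and integrated stress and unfolded protein response genes 0.14. Apoptosis genes stood at 679.9 against 958 CPM and p53 targets at 273 against 304 CPM. The immediate early genes, transcription factors and regulators induced within minutes of a stimulus, stood at 2781 against 17381 CPM, with 19 of 21 past 2-fold downwards. The NF-kB and cytokine genes stood at 731 against 3017 CPM, with all 15 of 15 past 2-fold downwards. Both turned at like depth, to log2 ratios of 0.06 and 0.54. Cytosolic ribosomal protein genes were within 2-fold for most genes (log2 ratio -0.21, 3 higher and 1 lower of 81), and heat shock genes had a log2 ratio of -0.39. The actin cytoskeleton group stood at 7961 against 21984 CPM (7 of 10 past 2-fold downwards), lysosomal genes at 6509 against 13362.5 CPM (6 of 13) and disease-associated microglia genes at 7285 against 14157 CPM (7 of 14). Cilia and tubulin genes stood at 1767 against 934 CPM (5 of 9 past 2-fold upwards), glycolysis genes at 4199.9 against 3041 CPM (8 of 16) and nuclear-retained long non-coding RNAs at 18325 against 39865.5 CPM (4 higher and 1 lower of 6). With equal weights per barcode, Actb and Tmsb4x of the actin group had log2 ratios of -0.82 and -0.68, under 2-fold. Of the nuclear-retained RNAs, Malat1 had -0.70 with equal weights, also under 2-fold, and Meg3 had 3.26. The median over all genes tested was -0.27 in the sums.

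**Figure D3:**
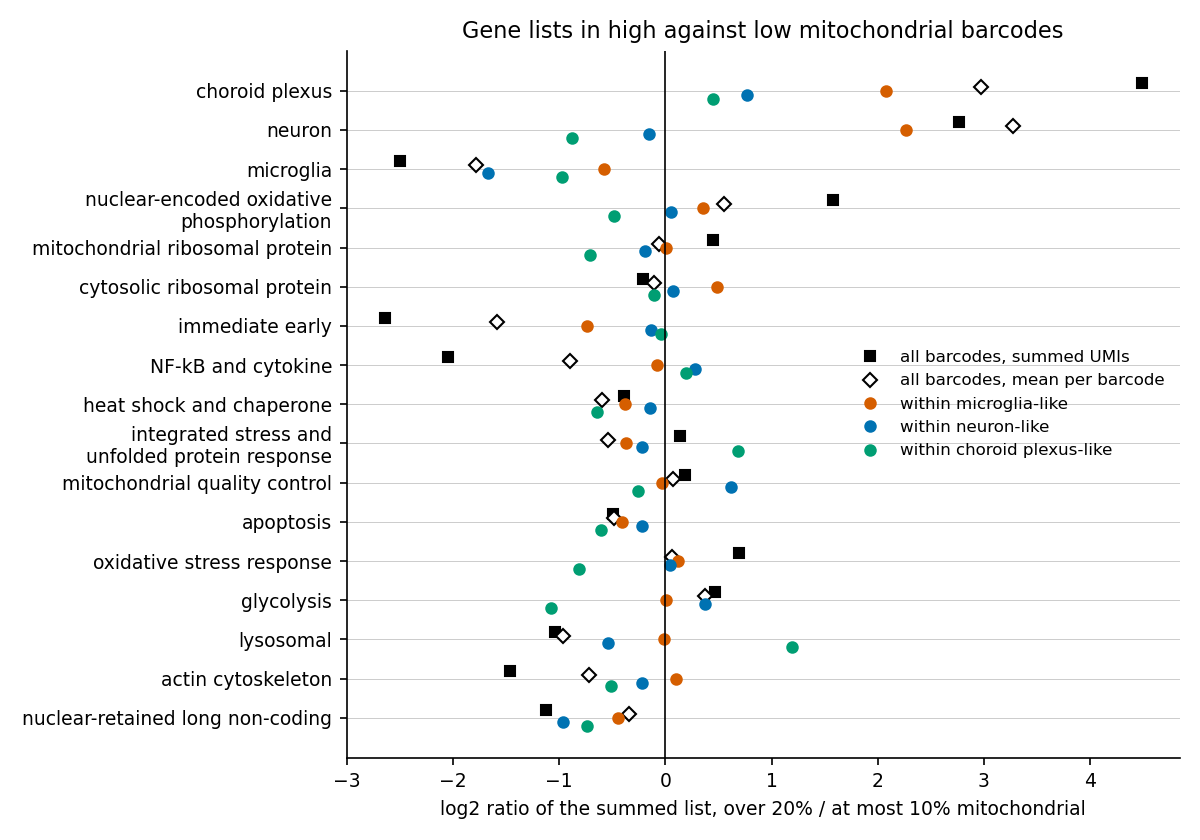
Log2 ratios (horizontal axis, high-mitochondrial over low-mitochondrial barcodes) of the CPM of 3 marker lists and 14 gene groups, summed over all barcodes (squares), as the mean per barcode (diamonds) and summed within microglia-like, neuron-like and choroid plexus-like barcodes (circles). The microglia list stands at -2.50 over all barcodes and at -0.58 within microglia-like barcodes, while the choroid plexus list stands at 4.49 and 2.07.

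The makeup changed stepwise with the mitochondrial share and not only at the 20% limit. Passing barcodes were divided at 5, 10, 20, 30 and 50%, which gave bands of 998, 1166, 809, 299, 221 and 77 barcodes with median non-mitochondrial depths of 6211.5, 5973.5, 2250, 1259, 1026 and 1114 UMIs. The mean level per barcode of the neuron list rose over the bands from 700.3 over 1365, 3367, 7306 and 12544 to 15111 CPM. The microglia list fell over the same bands from 32149 over 21506, 15562, 10222 and 6043 to 2352 CPM. The choroid plexus list was highest in the 20 to 30% band, at 4125, 9446.5, 53496, 71040.5, 43436 and 23659 CPM. Choroid plexus-like barcodes thus gathered between 10 and 30% (110 and 54 barcodes), whereas neuron-like barcodes were 42 of the 77 barcodes above 50% and the Tmem212-led cluster 15. Depth fell with the share over most of these bands, and its part in these trends was not tested.

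**Figure D4:**
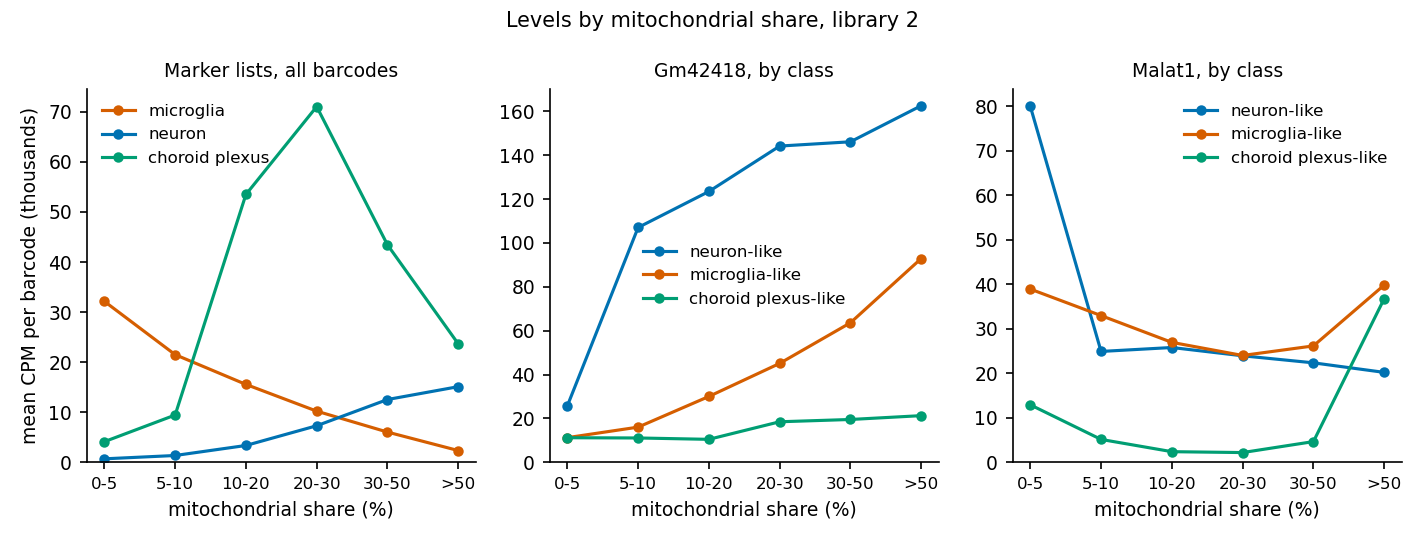
Mean level per barcode (units of 1000 CPM, vertical axes) in bands of the mitochondrial share (percent of UMIs, horizontal axes) for 3 marker lists over all passing barcodes (left), Gm42418 within 3 classes (middle) and Malat1 within the same classes (right). The neuron list rises from 700.3 to 15111 CPM and the microglia list falls from 32149 to 2352 CPM from the lowest to the highest band.

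The 216 neuron-like members came from 1 cluster led by Meg3, Slc17a7, Snap25 and Dnm1, and 214 of them held a UMI of the neuron list. Their median was 945.5 non-mitochondrial UMIs against 1278 in the 55 low-mitochondrial neuron-like barcodes, so this class was shallow in both sets. The neuron list itself stood at 25267 against 28140.3 CPM, with 1 of 9 genes past 2-fold upwards and 0 downwards, where 8.74% and 6.31% of the 412 genes tested were. Malat1 (chr19:5795690-5802672), a long non-coding RNA kept in the nucleus, stood at 22655 against 58777 CPM in the sums. That difference came with 16 deep neuron-like barcodes at or under 5%, whose mean was 80001 CPM at a median depth of 4790 UMIs, while the bands above ran from 24917 at 5 to 10% to 20213 CPM above 50%. At like depth (81 against 30 barcodes) the Malat1 level per barcode was 26039.8 against 24046 CPM. Other genes with low ratios were Mef2c, a transcription factor of neurons and microglia, the microglial genes Selplg, P2ry12 and Cx3cr1, Sparc, and 9330162G02Rik. Selplg, P2ry12, Cx3cr1 and Sparc took the other sign without barcodes of high doublet score, with log2 ratios of 1.47, 1.63, 0.90 and 0.56, and Selplg, Cx3cr1 and Sparc did so at like depth. The microglia list had a log2 ratio of -1.67 in this class, of 1.13 once barcodes with high doublet scores were left out, and of 0.88 at like depth. Haemoglobin and other red cell genes, which were raised in this cluster as a whole, stood at 1786 against 811 CPM, but their log2 ratio was -7.06 when barcodes with over 5% haemoglobin UMIs were kept in the clustering. Among the highest were Apoe, the lipid carrier of glia, at 1339.5 against 328 CPM, and Gm42418, Lars2, Mir6236, Syt11 and Pclo. Of these, Apoe did not keep its sign at like depth, where its log2 ratio was -0.08. At like depth, where 3.61% of 83 genes were past 2-fold upwards and 6.02% downwards, the lower ones included Calm2, Snap25, of the synaptic fusion complex (599 against 1287 CPM), Ppia and the glycolytic Aldoa, and the higher ones were Rpsa, Luc7l3 and Chd3. These genes of like depth were chosen after their values were seen.

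Within microglia-like barcodes the microglia list was within 2-fold in both sets, and the receptors Cx3cr1 and P2ry12 were lower in the members. Members were 183 barcodes with a median of 1211 non-mitochondrial UMIs, against 1541 with 6150. Different clusters held them: 60 members were in the cluster led by Crybb1, Cst3 and Lag3 and 78 in one led by Hpgds, Gm15503 and Gpr34, while 608 low-mitochondrial barcodes were in the cluster led by P2ry12, Hpgds and P2ry13, which held 20 members. The cluster led by Ccl4, Ccl3 and Hist1h1d and the one led by Tnf, Atf3 and Gpr84 held 7 and 18 members and 286 and 260 low-mitochondrial barcodes. The microglia list stood at 23992 against 35766.5 CPM (log2 ratio -0.58), and 2 of 12 genes were past 2-fold downwards, where 12% of the 8500 genes tested were and 2.19% were upwards. Both belong to the homeostatic state of microglia, Cx3cr1 at 2039 against 4998 CPM and P2ry12 (chr3:59216272-59262871), which senses ADP, at 1445 against 3328 CPM. At like depth (105 against 110 barcodes) the list's log2 ratio was -0.55, Cx3cr1 stood at 1316.5 against 3344 CPM, P2ry12 at 1169 against 2437 CPM and P2ry13, another purine receptor, at 268 against 611 CPM, and all 11 tested genes of the list were below 0 on the log2 scale. Entpd1, the ectonucleotidase CD39, and Fam105a were the other 2 genes past 2-fold downwards at like depth, where 1.38% of 363 genes were.

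Response genes of the microglia-like members depended on the depth at which they were compared. Against all low-mitochondrial microglia-like barcodes, the immediate early list stood at 12667 against 21049.5 CPM, with 6 of 21 genes past 2-fold downwards, and the NF-kB and cytokine list at 3590.3 against 3789 CPM. At like depth the immediate early list stood at 12236 against 7840.1 CPM, with 2 of 10 genes past 2-fold upwards, and the NF-kB and cytokine list at 3449.7 against 1474 CPM, with 3 of 3. The background there was 2.2%, or 8 of 363 genes. Genes were counted only with at least 100 UMIs over both sets, which a gene could reach through a high level in the members. Ier2 (77 UMIs in the members and 30 in the low set), Ccl3 (81 and 41) and Nfkbia (83 and 38) were such genes. The counts of 2 of 10 and 3 of 3 are therefore not read against the background, and list genes under the minimum were not tested. Egr1, an immediate early transcription factor, stood at 817 against 227 CPM, Ier2 at 542 against 189 CPM, the chemokine Ccl4 at 1063 against 346 CPM, Ccl3 at 570.2 against 258 CPM, and Nfkbia, the inhibitor induced by NF-kB, at 584 against 239 CPM. Socs3, Apoe and Lars2 were the other 3, and these genes were chosen after their values were seen. The heat shock genes Hspa1a and Hspa1b stood at 121 against 363 CPM and 143 against 405 CPM over all depths, beside Hist1h1c, encoding a linker histone, at 103 against 356 CPM and Zfp36l1, a decay factor of messenger RNA, at 297 against 784 CPM. Bbs9 and Trim65 complete the 8 lowest, on 1 and 2 UMIs in members. Nuclear oxidative phosphorylation genes were close in both sets (13577 against 10642 CPM, 1 of 82 past 2-fold), as were lysosomal genes (19342 against 19463 CPM), and 80 of 81 cytosolic ribosomal protein genes were above 0, at a log2 ratio of 0.48 that was 0.11 at like depth.

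Genes of other cell types were higher in the microglia-like members. Ptgds, the prostaglandin D synthase secreted by choroid plexus, meninges and oligodendrocytes, had the highest ratio at 862 against 51.7 CPM, 16.7-fold (14.2 to 19.5), but at like depth its log2 ratio was 0.43. The neuronal genes Pclo, Grin2b, Nrgn and Cplx2, with Syne1 and Mical2, were among the next highest, with Nrgn at 205 against 26.4 CPM. As lists, neuron markers stood at 1027 against 213 CPM, choroid plexus markers at 9109.8 against 2165 CPM, oligodendrocyte markers at 513 against 154 CPM and haemoglobin and other red cell genes at 968 against 348 CPM. At like depth these 4 lists stood at 1049 against 611 CPM, 9469 against 7639 CPM, 528 against 202 CPM and 1070.1 against 1285 CPM. Ttr, which microglia should lack, was also found outside its class: at least 1 Ttr UMI was present in 100% of microglia-like members (median depth 1211 UMIs) and 99.7% of the low-mitochondrial ones (median depth 6150). Its level was 8094 against 1909.6 CPM in microglia-like, 14401 against 8582 in neuron-like and 5901 against 940.0 CPM in endothelial-like barcodes. The source of this RNA was not tested, and no marker outside its own class is read as expression. Barcodes with high doublet scores were kept, and 24 members were among the 102 so scored.

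The microglia-like members fell into kinds that differed in nuclear and cytosolic RNA. 112 of the 183 (61.2%, 53.7 to 68.3%) held less than 10000 CPM of Malat1, against 7.20% of the low-mitochondrial microglia-like barcodes. At like depth both shares were close, 64.8% (54.8 to 73.8%) against 66.4% (56.7 to 75.1%). The limit was set after the values were seen, and 21 members lay between 5000 and 20000 CPM. The members under the limit had a median Malat1 level of 2113 CPM and a median of 178717 CPM of cytosolic ribosomal protein genes. The 71 over it had 60621 and 19039.7 CPM, and 54 of them (76.1%) held less than 40000 CPM of ribosomal protein genes. Low-mitochondrial microglia-like barcodes over the Malat1 limit had a median of 79735 CPM of ribosomal protein genes, and 5.73% of them were under 40000 CPM. At like depth, 27.6% (19.3 to 37.2%) of the high and 16.4% (10.0 to 24.6%) of the low-mitochondrial microglia-like barcodes combined high Malat1 with low ribosomal protein RNA, intervals that overlap. Over the 183 members, Spearman's rho between both levels was -0.72, given as a description, since both share the barcode's total. Of the members under the Malat1 limit, 101 held at least 100000 CPM of ribosomal protein genes, and of those at or over it 8 did. The kinds had close mitochondrial shares, at medians of 25.5 and 27.5% and close depths, at 1186 and 1236 UMIs.

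**Figure D5:**
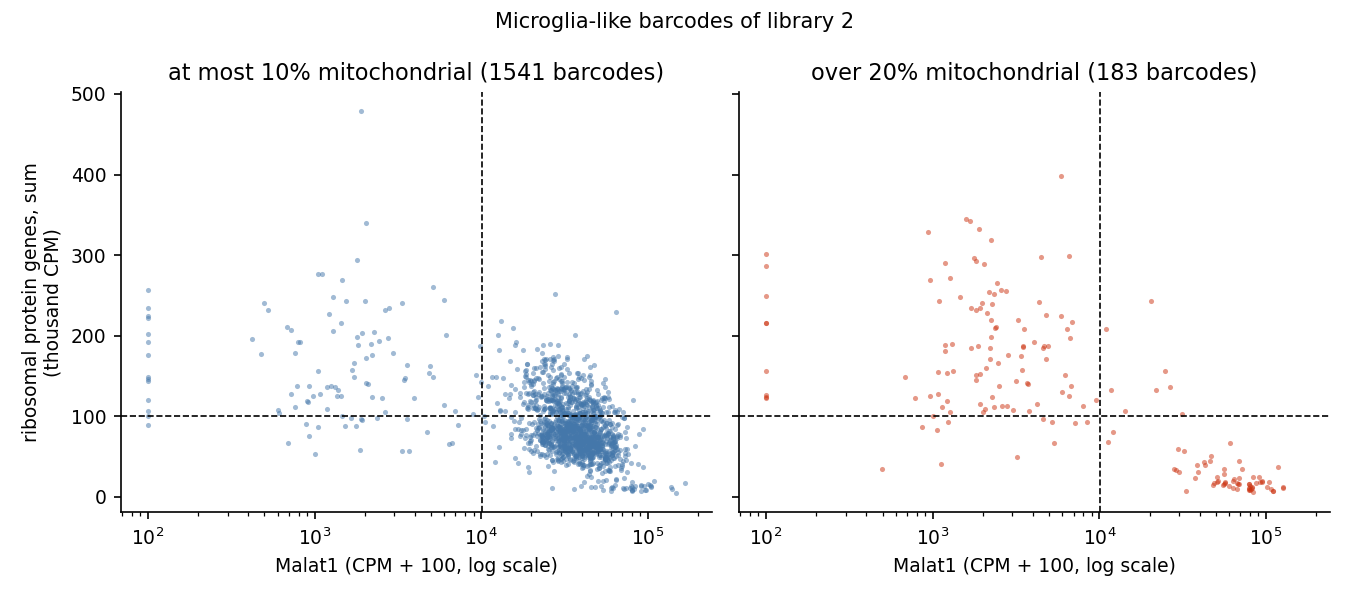
Sum of the cytosolic ribosomal protein genes (units of 1000 CPM, vertical axis) against Malat1 (CPM with 100 added, log axis) in the low-mitochondrial (left) and high-mitochondrial (right) microglia-like barcodes, each point a barcode, with dashed lines at 10000 CPM of Malat1 and 100000 CPM of ribosomal protein genes. The 112 members under 10000 CPM of Malat1 sit at a median ribosomal protein level of 178717 CPM and the 71 over it at 19039.7 CPM.

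Other genes split with Malat1 in the same members. The barcodes over the limit held 720.2 CPM of Neat1, another nuclear long non-coding RNA, against 38.4 CPM under it, and 1278 against 147 CPM of Zeb2, a transcription factor with a long transcript. Immediate early genes stood at 23519 against 4556 CPM and NF-kB and cytokine genes at 6328 against 1544 CPM. Cst3 and Tmsb4x, chosen after their values were seen, went the other way, with Cst3, encoding the secreted protease inhibitor cystatin C, at 35129 against 87351 CPM and Tmsb4x, encoding an actin-binding peptide, at 4767 against 22282 CPM. Actin cytoskeleton genes stood at 11078 against 36976 CPM and nuclear oxidative phosphorylation genes at 6988 against 18501 CPM. The microglia list differed less, at 28201 against 20846 CPM, and Ttr stood at 7871 and 8260.3 CPM. The members were divided by their own Malat1 level, so these values describe both kinds and no comparison of conditions rests on them.

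The 88 choroid plexus-like members held 64.3% of the non-mitochondrial UMIs of the set and were the deepest class with more than 1 member, with a median of 3790.5 UMIs against 6174 in the 50 low-mitochondrial ones. They came from a pair of clusters. The one led by Ttr and Kcnj13 held 56 high and 44 low barcodes, and the one led by Htr2c, the serotonin receptor 2C, with Prlr and Trpm3, held 32 high and 6 low, with a median of 33460 UMIs in the high ones. Across both, 6 of 15 choroid plexus markers were past 2-fold upwards and 1 downwards, where 15.2% and 10.3% of 2439 genes were (256893 against 187646 CPM, log2 ratio 0.45). Ion and fluid transport genes had 7 of 11 past 2-fold upwards (7229.9 against 4042 CPM), and lysosomal genes 5 of 9 (4864 against 2131 CPM). Glycolysis genes were lower (4785 against 10106 CPM, 4 of 12 past 2-fold), with Eno1 at 386 against 1241 CPM and Gapdh at 1019 against 2933 CPM. Nuclear oxidative phosphorylation genes had a ratio below 0 on the log2 scale, the other sign than in the sum over all classes: 75 of 81 were below 0 and 18 past 2-fold (61157.5 against 85666 CPM, log2 ratio -0.49). Mitochondrial ribosomal protein genes had a log2 ratio of -0.71 and oxidative stress response genes -0.81. The clusters differed in this: nuclear oxidative phosphorylation stood at -0.67 within the Ttr-led and 0.73 within the Htr2c-led cluster, and glycolysis at -1.08 and 0.11, the second on 6 low barcodes. The Htr2c-led cluster held 1058713 of the 1272224 non-mitochondrial UMIs of these members, and 98710 of 425572 in the low-mitochondrial ones. The class sums, also those of markers, transport and lysosomal genes, thus compare unlike mixes of both clusters. With equal weights per barcode, 353 of the 2439 genes were past 2-fold upwards and 365 downwards, against 371 and 252 in the sums.

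The single genes of this class were led by Mgp, encoding the calcification inhibitor matrix Gla protein, at 307 against 4.70 CPM, 65.4-fold (17.98 to 542) higher on 2 UMIs in the low set. Antxr1, Angptl2, Apoc1, Sema3b, Gramd1b, Scamp1 and Cntn1 followed, at 5.14 to 11.5 times the low level. These ratios and the low ones below are sums over both clusters, whose mix differed between the sets, and are not given by cluster. The lowest were Ubb, encoding polyubiquitin, at 742 against 3153 CPM, the proteasome ATPases Psmc2 and Psmc5 at 54.2 against 216 CPM and 106 against 357 CPM, Phgdh, the first enzyme of serine synthesis, at 43.2 against 164 CPM, Gsta4, a glutathione transferase that clears lipid peroxidation products, at 187 against 602 CPM, and Ckb, the brain creatine kinase, at 662 against 1889 CPM. Over the bands of mitochondrial share, the Ttr level per choroid plexus-like barcode was 60392.5 CPM at or under 5% (25 barcodes), 234751 at 5 to 10%, 316658 at 10 to 20%, 300476 at 20 to 30%, 216458 at 30 to 50% and 89427 CPM above 50% (7 barcodes). The nuclear oxidative phosphorylation level was 101306 CPM in the lowest and 23796.5 CPM in the highest of these bands. The low-mitochondrial barcodes of this class were thus not its most Ttr-rich ones. No like-depth comparison was made in this class, because 3 low-mitochondrial barcodes lay between 1000 and 2000 UMIs.

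The Tmem212-led cluster had the highest mitochondrial shares, with 23 of its 31 barcodes above 20% and a median of 49.7%. Summed over its barcodes, the ependymal list was raised, but only 8 of the 23 members held any UMI of that list, so the name ependymal was not given. At the finer clustering (Leiden resolution 2), 18 of these members formed a cluster in which every barcode was high-mitochondrial, with shares from 45.5 to 70.1% (median 59.6%) and a median of 3721 UMIs, 1399.5 of them non-mitochondrial. Its leading genes were Ddn, Cnih2, Camk2a, Hpcal4, Pcsk1n, Shank1, Kif5a, Psd, Gng13 and Fbxl16. Camk2a, encoding the synaptic kinase subunit whose messenger RNA is carried into dendrites, was found in 18 of the 18 barcodes at 4776 CPM, against 15.8 CPM in the low-mitochondrial set. Ddn, encoding dendrin, a protein of dendritic spines, was in 16 at 1854 CPM, and Shank1, a scaffold of the postsynaptic density, in 17 at 1539.5 CPM. Astrocyte markers stood at 10462.5 CPM in the same barcodes (all 18), beside 435 in the low-mitochondrial set, and neuron markers at 8012 beside 484 CPM. The low-mitochondrial set was 71.2% microglia-like, and neuron-like barcodes above 50% held more of the neuron list than this cluster, 23302 CPM. Nuclear long non-coding RNAs stood at 1885 CPM, on 60 UMIs in 15 barcodes, beside 39865.5 CPM. Cytosolic ribosomal protein genes stood at 210695 beside 100285 CPM and nuclear oxidative phosphorylation genes at 55517 beside 15009.6 CPM, with Cox8a, a subunit of cytochrome c oxidase, at 7666 beside 604 CPM. Mt1, encoding a metallothionein, stood at 7478 beside 356 CPM, and Apoe at 6881 beside 2528 CPM. Ependymal markers gave 3 UMIs in 3 of the 18 barcodes, microglia markers 471 CPM, and immediate early genes 911 beside 17381 CPM. The cluster was picked out because all its barcodes were members, so its levels are a description.

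Gm42418 had the highest mean level per barcode of all non-mitochondrial genes in the high-mitochondrial set, 85194 against 15699 CPM, ahead of Ttr at 47516 against 6209 CPM. It is a long non-coding RNA model at chr17:39846958-39848788 (GRCm38, plus strand in GENCODE M21) that overlaps a copy of the 45S ribosomal RNA precursor, so reads of ribosomal RNA copies could be counted for it and its level is uncertain. The level per barcode ran from 0 over a median of 65044 to 393038 CPM in the high set and from 0 over 11163 to 361638 CPM in the low set, ranges that overlap with quartiles that do not (32369.9 CPM as the lower quartile of the high and 16237 CPM as the upper quartile of the low set). Within microglia-like barcodes it rose over the bands of mitochondrial share from 11255.5 over 16048, 30028, 45094 and 63619 to 92913 CPM. The median depth of these microglia-like bands fell alongside, from 6211.5 to 1073 UMIs, and its part was not tested. Within neuron-like barcodes Gm42418 rose from 25733 over 107046, 123461, 144167 and 146114 to 162572 CPM. The first of these bands held 16 barcodes with a median depth of 4790 UMIs, against 1153 in the next. The part of depth in that step, which lies below 10%, was not tested. Within choroid plexus-like barcodes the means were 11214, 11104, 10481, 18490.1, 19534 and 21283 CPM, while in sums over that class it was lower in members (4183 against 7482 CPM). At like depth the level per barcode was 53433 against 29473 CPM in microglia-like and 160673 against 110336 CPM in neuron-like barcodes. Lars2, encoding the mitochondrial leucyl-tRNA synthetase, stood at 2708 against 899 CPM in microglia-like and 4671 against 2761 CPM in neuron-like barcodes of like depth. Mir6236, a microRNA gene model, stood at 2459.5 against 1352 and 6294 against 3937 CPM. The source of the reads counted for Lars2 and Mir6236 was not tested either, and no change in the mitochondrial enzyme is read from Lars2.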

How the data were processed

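The deposited files of each library are raw UMI counts per gene and barcode in 10x matrix form, made by the authors with Cell Ranger 3.0.1 on GRCm38.p5, per the submitters' processing notes, with 41605 genes and no normalization. The mitochondrial share was computed over the 37 genes starting mt-, and all other levels as CPM over the remaining genes. Log2 ratios of single genes were taken after adding 1 CPM, as were those of lists under the alternatives. Other log2 ratios of lists, and those of shares within the mitochondrial UMIs, were taken without it. Genes with at least 100 UMIs over both sets were counted, and 95% intervals were exact Poisson for lists, exact conditional for gene ratios and exact binomial for shares. Coordinates come from GENCODE M21 on GRCm38, where 376 of 376 identifiers were found. The members and the 16 marker lists and 21 gene groups were chosen with earlier results of these data known.

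Clusters were built in scanpy 1.11.5 with leidenalg 0.10.2 (2000 variable genes without mitochondrial, response, ribosomal protein and haemoglobin genes, 30 principal components, 15 neighbours, resolution 1), which gave 21 clusters. A cluster was named from a marker list when at least 60% and at least 3 of its markers were raised, and lost the name when under 50% of at least 10 members held a UMI of that list. These naming thresholds, the setting aside of barcodes with over 5% haemoglobin UMIs, the limits on Malat1 and ribosomal protein genes, and the like-depth comparison were chosen after seeing the data. Scrublet's automatic threshold marked 0.0280% of barcodes, which is not a working call, so doublets were kept, and the 2.86% with the highest scores were left out as an alternative only. Named genes are the 15 highest and 15 lowest ratios, ranked on the more cautious end of their interval and limited to genes that reached 50 CPM in either set, 8 and 8 within a class with at least 50 barcodes in both sets, the leading members of each list, and the mitochondrial protein genes. Some genes that this rule names are not reported here. Other genes are said to be chosen after their values were seen. Alternatives covered the mitochondrial limits, the depth and gene minimums, doublets, weighting, scaling, the count minimum and the cluster resolution. Calculations used numpy 2.4.6, scipy 1.17.1, pandas 2.3.3 and python 3.11.15, and the scripts were tested on simulated data.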

Additional observations from a re-analysis of the deposited data

Results flagged for a closer look

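Mitochondrial UMIs over 20% also occurred in barcodes that the depth limits leave out. Of the 508 barcodes with at least 1000 UMIs but under 500 genes, 253 exceeded 20%, with choroid plexus markers at 41548, neuron markers at 10747 and microglia markers at 8433 CPM. Among the 2370 barcodes under 1000 UMIs, 1376 did so, with choroid plexus markers at 27282.5, neuron markers at 15249.7 and microglia markers at 7233 CPM. In library 1, the same limits gave 83 barcodes over 20%, or 1.09% of 7627. Nothing was compared between the libraries, since no label gives their groups.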

How the results depend on the processing

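All values rest on 1 library with a depth gap between both sets, and the causes of the changes below were not tested. Of 121 summary values under an alternative, 58 stayed within their error or within 1.5 times and 63 moved, and of 1468 log2 ratios of lists and genes past 2-fold, 1439 kept their sign and 1319 stayed past 2-fold. In the order choroid plexus list and microglia list, the log2 ratios over all barcodes were 4.49 and -2.50 as reported, 4.67 and -2.34 with the limit at 15%, 3.77 and -2.64 at 30%, 5.37 and -2.92 against at most 5%, 4.73 and -2.87 with at least 2000 UMIs, 4.62 and -2.56 with at least 1000 non-mitochondrial UMIs, 4.55 and -2.18 with no gene minimum, and 4.51 and -2.54 without high Scrublet scores. They were 2.97 and -1.79 with equal weights, 4.03 and -2.96 with CPM over all genes, 4.52 and -2.47 without Gm42418, Lars2 and Mir6236, and 2.26 and -1.10 at like depth, and the microglia list stood at -1.13 without choroid plexus-like barcodes. The members numbered 298 at 30%, 253 with at least 2000 UMIs and 383 with at least 1000 non-mitochondrial UMIs.

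Genes past 2-fold over all barcodes numbered 1590 higher and 2706 lower as reported, with 1538 lower when 10 CPM were added, 4308 lower with CPM over all genes, 1340 lower without choroid plexus-like barcodes, 2887 and 3750 higher with at least 20 and at least 1 UMI per gene, and 52 higher and 34 lower at like depth, where fewer genes were tested. Within microglia-like barcodes, 186 higher and 1020 lower genes became 102 and 424 at 15%, 554 and 2109 at 30%, 93 and 398 with 10 CPM added, 78 and 2308 with CPM over all genes, 902 and 2173 with at least 20 UMIs, 2489 and 3027 with at least 1 UMI, and 8 and 5 at like depth. The higher count was 100 against at most 5% and 313 at resolution 2, and the lower count 1638 with at least 2000 UMIs. The neuron-like share of members was 28.7% at 15%, 45.6% at 30%, 18.2% with at least 2000 UMIs, 22.5% with at least 1000 non-mitochondrial UMIs, 27.8% at resolution 2 and 30.7% at like depth. The microglia-like share was 21.8% at 30%, 20.8% at resolution 2 and 39.8% at like depth, and the choroid plexus-like share 11.4% at 30%, 29.2% with at least 2000 UMIs, 22.7% with at least 1000 non-mitochondrial UMIs and 5.36% at resolution 0.5. Microglia-like members under the Malat1 limit were 52.5% at 5000 CPM, 63.9% at 20000 CPM and 46.0% at resolution 2, the last outside the reported interval. CPM over all genes, which counts the mitochondrial UMIs, moved the median log2 ratio of all genes by -0.43 and the higher share of calls from 37.0 to 19.8% (microglia-like 15.4 to 3.27%, neuron-like 58.1 to 3.85%, choroid plexus-like 59.6 to 22.8%). Equal weights gave 46.0% over all and 49.2% in choroid plexus-like barcodes, leaving out choroid plexus-like barcodes 47.6%, and leaving out Gm42418, Lars2 and Mir6236 72.5% in neuron-like barcodes.

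Log2 ratios took the other sign for the pericyte or smooth muscle list over all barcodes at 15% (0.73), the oligodendrocyte list against at most 5% (1.80) and with equal weights (0.21), the border-associated macrophage list without choroid plexus-like barcodes (0.18), the monocyte list within microglia-like barcodes with at least 2000 UMIs (-0.59), and Mir6236 within choroid plexus-like barcodes with equal weights (0.48). With haemoglobin-led barcodes kept, the erythrocyte list stood at -0.38 within microglia-like and -7.06 within neuron-like barcodes. Without high Scrublet scores, the neuron-like values were 1.13 for the microglia list, 1.63 for P2ry12, 1.47 for Selplg, 0.90 for Cx3cr1 and 0.56 for Sparc. At like depth over all barcodes they were 0.92 for the border-associated macrophage, 0.41 for the oligodendrocyte, 0.072 for the erythrocyte, 0.062 for the immediate early and 0.54 for the NF-kB and cytokine list, 0.65 for S100a9, 0.037 for H2-Ab1, 0.54 for H2-Aa and 0.38 for Cd74. Within microglia-like barcodes of like depth the erythrocyte list stood at -0.26. Within neuron-like barcodes of like depth the values were 0.88 for the microglia list, 1.62 for Selplg, -0.081 for Apoe, 0.049 for Cx3cr1, 0.060 for Sparc and 0.17 for Malat1. The choroid plexus-like class gave no comparison at resolution 0.5 or at like depth, where it had too few low-mitochondrial barcodes. The like-depth, choroid plexus-free, Gm42418-free, haemoglobin and Malat1 settings were chosen after seeing the data. No paired analysis was possible because both sets come from 1 library with no replicates.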
